A study of Homo sapiens with 14 samples.

Results

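CXCL8 and 8 other chemokine genes were followed in Kasumi-1 cells in which the AML1-ETO fusion had been targeted by siRNA. The genes were CXCL8, CXCL1, CXCL2, CXCL3, CXCL10, CCL2, CCL3, CCL4 and CCL5, and every probe set whose only annotated symbol was one of these was taken. This gave 10 of the 22283 probe sets of the array, for 8 of the 9 symbols and of 11963 genes with a symbol of their own. CXCL8 and CCL5 had 2 probe sets each, and CCL3 had none of its own and was not analysed here. All groups came from 1 established line, Kasumi-1, grown from a human acute myeloid leukaemia and bearing AML1-ETO, which joins RUNX1 to RUNX1T1. RNA was taken at 96 h for 14 single-colour oligonucleotide arrays. In the first group an siRNA against AML1-ETO was given by nucleofection, an electrical transfection, at 1.5 µM (3 arrays), and in the second by the lipid reagent siLentFect at 240 nM (3 arrays). The controls received an siRNA to firefly luciferase, by nucleofection at 1.5 µM (2 arrays) or by lipid at 240 nM (3 arrays). A single array came from nucleofection without siRNA and 2 arrays from untransfected cells. Concentration and method changed together, so their effects cannot be told apart. Replicate 3 of luciferase nucleofection and replicate 2 of the untransfected cells were not analysed here. Nothing in the labels says that replicates came from separate cultures, so the p-values speak of the spread among these arrays alone, which may be technical.

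Chemokines are small secreted proteins that guide leukocytes through G protein-coupled receptors. CXCL8, also called interleukin 8, and its relatives CXCL1, CXCL2 and CXCL3 attract neutrophils through the receptors CXCR1 and CXCR2. CXCL10 attracts activated T cells through CXCR3 and is a classical interferon target, CCL2 attracts monocytes through CCR2, and CCL3, CCL4 and CCL5 attract monocytes and T cells. The CXCL8 gene is well known for a promoter that binds NF-kB, AP-1 and C/EBP factors and for an mRNA with AU-rich elements that shorten its life. RUNX1 binds DNA through its Runt domain, which AML1-ETO keeps.

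The 5 CXC genes lie on chromosome 4 in the order CXCL8, CXCL1, CXCL3, CXCL2, CXCL10, and the CCL genes on chromosome 17. RefSeq promoter windows on GRCh38.p14, of 300 bases around the gene's start, were matched to all 5 CXC genes. CCL2, CCL4 and CCL5 had no entry in the table used. Of the CXCL8 window the 150 bases before the start (chr4:73740419-73740568, plus strand) are shown because CXCL8 carried the main change. Capitals mark an AP-1 match (TGACTCA) and an NF-kB core match (GGAATTTCC).
CXCL8: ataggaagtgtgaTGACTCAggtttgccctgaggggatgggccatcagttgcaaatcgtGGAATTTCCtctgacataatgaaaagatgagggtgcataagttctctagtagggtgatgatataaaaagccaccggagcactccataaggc
For the other genes 59 bases around the NF-kB core match, in capitals, are shown to compare them with CXCL8. They are CXCL1 at chr4:73869290-73869348 (plus strand), CXCL2 at chr4:74099239-74099297 (minus strand), CXCL3 at chr4:74038734-74038792 (minus strand) and CXCL10 at chr4:76023640-76023698 (minus strand).
CXCL1: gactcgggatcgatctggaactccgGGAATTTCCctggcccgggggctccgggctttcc
CXCL2: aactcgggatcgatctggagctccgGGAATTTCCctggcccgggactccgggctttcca
CXCL3: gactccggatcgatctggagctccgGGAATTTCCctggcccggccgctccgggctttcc
CXCL10: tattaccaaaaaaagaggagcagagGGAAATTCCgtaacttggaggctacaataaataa

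The windows were searched on both strands for 4 letter strings, and matches of different strings did not overlap. The NF-kB core GGAATTTCC was in all 5 windows and in 0.4613% of the 35116 RefSeq promoter windows. In CXCL8 it lay at bases −91 to −83 from the start, in CXCL1 and CXCL3 at −78 to −70 and in CXCL2 at −77 to −69. In CXCL10 it was read on the reverse strand at −176 to −168. The AP-1 string TGACTCA was in the CXCL8 window at −137 to −131, in 4.949% of all windows, and in none of the other 4. The RUNX string TGTGGT, present in 13.07% of all windows, matched none of the 5. The interferon-response string GAAANNGAA, present in 8.107% of all windows, matched CXCL2, CXCL3 and CXCL10. The CXCL1 and CXCL3 windows were identical at 68.67% of positions, CXCL1 and CXCL2 at 51.67%, and CXCL8 and CXCL1 at 25%. The strings were chosen with the sequences in view, and a match describes letters and not a bound site.

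**Figure D1:**
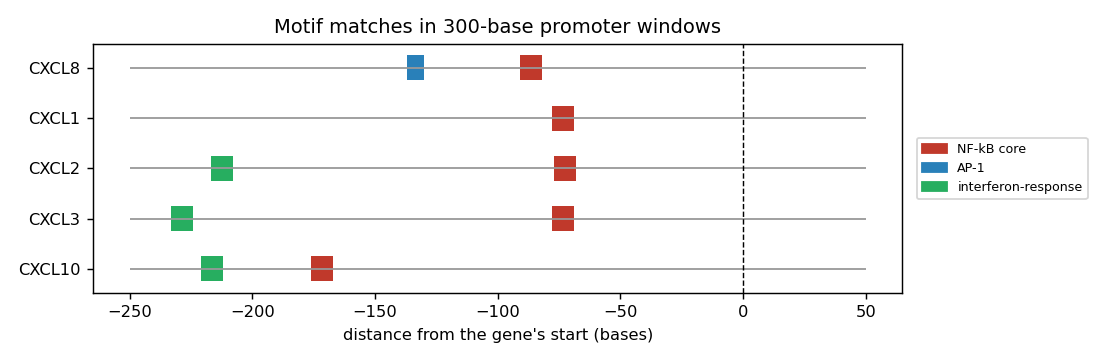
Positions of the string matches in the promoter windows of the 5 CXC genes, with the distance from the gene's start in bases on the horizontal axis and 1 gene per line. The NF-kB core lies between −91 and −69 in CXCL8, CXCL1, CXCL2 and CXCL3 and between −176 and −168 in CXCL10.

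The deposited values were linear MAS5 intensities with a mean of 138.5 on every array, which hides any shift that most genes have in common. Values under a floor of 20 were raised to it, which touched 38.4% to 44.3% of an array's values, and differences below are on the log2 scale of floored values. Of the 10 chemokine probe sets 7 passed the filter on low values and were tested with limma among 13329 probe sets, and calls needed an adjusted p (Benjamini-Hochberg) below 0.05. Of the myeloid blast markers 5 of 6 genes had a median at or above the floor, MPO among them. So did 3 of 4 T cell genes, 2 of 2 B cell genes, 3 of 4 epithelial genes, 2 of 4 fibroblast genes, 1 of 4 monocyte and macrophage genes and 1 of 3 endothelial genes. This is a low bar, which most values of every array passed. The highest median was 6388 among myeloid genes (MPO), 188 among epithelial (EPCAM) and 89.4 among fibroblast genes (COL1A1). It was 50.9 for T cell (CD3E), 35.9 for endothelial (PECAM1), 33.9 for B cell (CD79A) and 31.4 for monocyte and macrophage genes (CSF1R). Some myeloid genes were dim too, with CD34 at 66.8 and CD38 at 43.3. For knockdown by either method limma called 0 of the 3 T cell, 3 B cell, 3 epithelial and 3 fibroblast probe sets tested. It also called 0 of 1 for monocytes and macrophages and 0 of 2 for endothelium. Over all probe sets 2.1% were called by nucleofection and 0.0675% by lipid, so 0 calls in lists this small say little. Of 8 myeloid probe sets 1, of PTPRC, was called higher by nucleofection (log2 difference 1.40, limma adjusted p = 0.00343). As the mean of both methods it was also called higher, at 0.94 (adjusted p = 0.00339). The 3′ to 5′ log2 ratio of GAPDH, a sign of RNA quality, averaged −0.14 with AML1-ETO siRNA and 0.14 with luciferase siRNA by nucleofection (exact two-sided permutation p = 0.1, the smallest possible for these 3 and 2 arrays). It averaged −0.03 over the 5 nucleofection arrays with siRNA and −0.27 over the 6 lipid arrays (exact p = 0.00433). The same ratio of ACTB ran from 0.29 to 0.84 over these nucleofection arrays and from 0.30 to 0.59 over the lipid arrays, which overlapped. By nucleofection it was 0.29, 0.46 and 0.41 with AML1-ETO siRNA, against 0.84 and 0.38 with luciferase siRNA. The part of the GAPDH differences in the results was not tested.

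RUNX1T1, the fusion partner of RUNX1, served as the check of the target and was lower with AML1-ETO siRNA by nucleofection. Probe set 205529_s_at had intensities of 318, 328 and 251 with AML1-ETO siRNA by nucleofection, against 644 and 763 with luciferase siRNA. By lipid it had 400, 426 and 502 with AML1-ETO siRNA, against 540, 560 and 567 with luciferase siRNA. The groups did not overlap within either method. The log2 difference for RUNX1T1 was −1.24 by nucleofection (SE 0.18, limma adjusted p = 0.00306) and −0.34 by lipid (adjusted p = 1). By lipid 216831_s_at was at −0.72 (limma adjusted p = 0.396) and 205528_s_at at −0.29, each without overlap of the groups. Probe set 216832_at was at −0.10 by lipid with overlap, and no RUNX1T1 probe set was called by lipid. As the mean of both methods 3 of the 4 RUNX1T1 probe sets were called lower and 216832_at was not, at −0.22 (adjusted p = 0.502). By nucleofection 3 were called, and 1 without luciferase nucleofection replicate 2. Probe set 216831_s_at lay under the floor on all 3 AML1-ETO nucleofection arrays (8.12 to 15.9), so its −1.10 understates the difference. Transcripts of RUNX1T1 itself may add to these signals, and the fusion cannot be told apart from them here.

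CXCL8 was the chemokine that fell after AML1-ETO siRNA, and it was called with nucleofection and not with lipid. Probe set 202859_x_at had intensities of 126, 140 and 228 with AML1-ETO siRNA by nucleofection, against 821 and 769 with luciferase siRNA by nucleofection. The 3 AML1-ETO nucleofection arrays were the 3 lowest of all 14, and the groups did not overlap. The log2 difference was −2.32, a 5.0-fold lower signal (SE 0.27, 95% interval −2.90 to −1.74, limma adjusted p = 0.000477). It was the lowest difference among the 13329 probe sets tested.

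The second CXCL8 probe set gave a like result. Probe set 211506_s_at had 24.3, 33.5 and 31.1 with AML1-ETO siRNA by nucleofection, against 104 and 135 with luciferase siRNA by nucleofection. Again the 3 AML1-ETO nucleofection arrays were the lowest of the 14. The log2 difference was −2.01, or 4.04-fold lower (SE 0.23, limma adjusted p = 0.00043), the third lowest of all. The probe sets read 1 gene and are not independent of each other, and the suffixes _x_at and _s_at mark probes that can take up related transcripts. In RNA from many cells, fewer cells that make a transcript and less transcript per cell cannot be told apart.

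By lipid CXCL8 did not pass. Probe set 202859_x_at had 589, 704 and 811 with AML1-ETO siRNA by lipid, against 640, 983 and 993 with luciferase siRNA by lipid, and these groups overlapped. Its log2 difference was −0.30 (SE 0.24, 95% interval −0.82 to 0.22, limma adjusted p = 1). Probe set 211506_s_at had 71.6, 83.3 and 104 with AML1-ETO siRNA by lipid, against 110, 129 and 111 with luciferase siRNA by lipid. Here every AML1-ETO array lay below every luciferase array, with a log2 difference of −0.45 (SE 0.21, limma adjusted p = 1).

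As the mean of both methods CXCL8 fell by 1.31 (202859_x_at, SE 0.18, limma adjusted p = 0.00214) and by 1.23 (211506_s_at, SE 0.15, adjusted p = 0.00101) on the log2 scale. These were the lowest and the second lowest differences of the 13329 tested. The difference between the methods in this effect, nucleofection minus lipid, was −2.02 (95% interval −2.80 to −1.24, limma adjusted p = 0.0636) and −1.57 (95% interval −2.23 to −0.90, adjusted p = 0.0884). Neither passed over all probe sets. The first was called without AML1-ETO nucleofection replicate 3, whose 228 was the highest of its group, at −2.28. RUNX1T1 205529_s_at had a negative difference within each method too, and its own difference between methods was −0.90 (adjusted p = 0.222).

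The arrays without AML1-ETO siRNA gave the level of CXCL8 in control cells. On the array of nucleofection without siRNA the 2 probe sets had 684 and 108, and on the 2 untransfected arrays they had 755 and 944 (202859_x_at) and 77.5 and 117 (211506_s_at). Ordered from high to low, the group means of 202859_x_at were 872 ± 201 in the luciferase lipid group (SD, n = 3), 849 ± 133 in untransfected cells (SD, n = 2), 795 ± 36.8 in the luciferase nucleofection group (SD, n = 2), 701 ± 111 in the AML1-ETO lipid group (SD, n = 3), 684 on the array without siRNA, and 165 ± 55.6 in the AML1-ETO nucleofection group (SD, n = 3). The arrays of neighbouring groups in this order overlapped in range except for the last pair. Between the lowest of the other 11 arrays, at 589, and the highest AML1-ETO nucleofection array, at 228, there was a gap that no array filled.

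**Figure D2:**
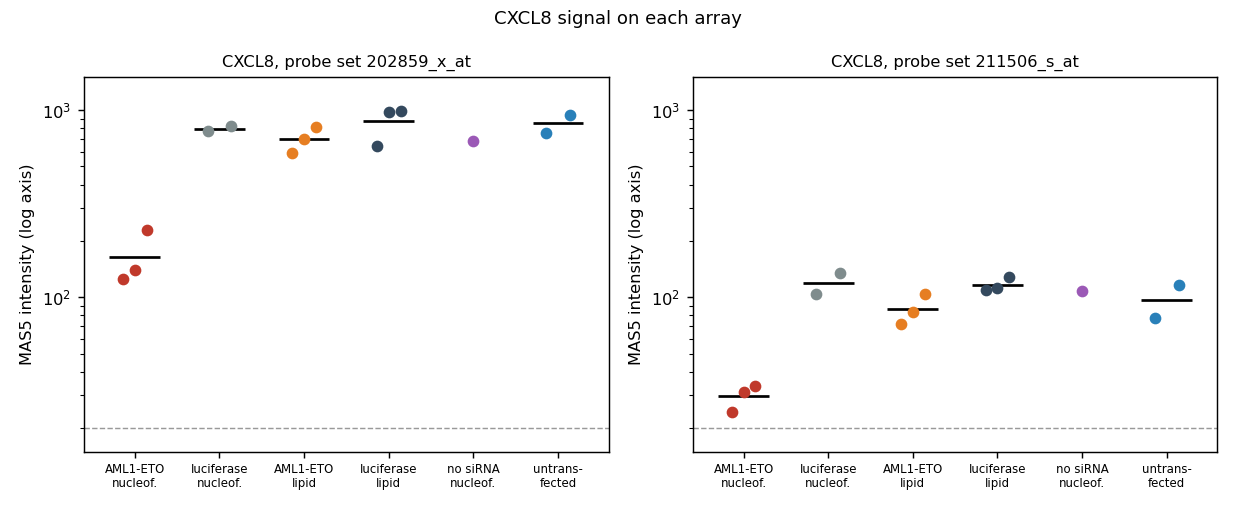
MAS5 intensity of the 2 CXCL8 probe sets on each of the 14 arrays (log axis), by group; points are arrays, horizontal lines are group means and the dashed line is the floor of 20. The 3 AML1-ETO nucleofection arrays, at 126 to 228 and at 24.3 to 33.5, lie below all other arrays in both panels.

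CXCL1, a neutrophil attractant like CXCL8, was not called for knockdown but stood lowest in the same group. Its probe set 204470_at had 21.9, 26.0 and 23.3 with AML1-ETO siRNA by nucleofection, against 29.5 and 34.2 with luciferase siRNA by nucleofection. The 3 AML1-ETO arrays lay below both luciferase arrays, and all 5 were near the floor but above it. The log2 difference was −0.42 (SE 0.18, limma adjusted p = 0.244). By lipid CXCL1 had 48.1, 41.2 and 49.2 with AML1-ETO siRNA, against 41.8, 44.7 and 48.9 with luciferase siRNA, which overlapped (log2 difference 0.03, 95% interval −0.32 to 0.38). The array without siRNA had 38.9 and the untransfected arrays 34.1 and 46.6.

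CXCL2 and CXCL3, the closest relatives of CXCL1, were too dim to test. CXCL2 (209774_x_at) had 10.6 to 14.2 with AML1-ETO siRNA by nucleofection, against 18.6 and 5.35 with luciferase siRNA by nucleofection, and 13.9 to 21.8 with AML1-ETO siRNA by lipid, against 22.5 to 25.6 with luciferase siRNA by lipid. It lay under the floor on 9 of 14 arrays. CXCL3 (207850_at) lay under the floor on all 14, between 0.698 and 10.8. The transcripts of CXCL1, CXCL2 and CXCL3 are alike, and how far their probe sets share signal was not tested.

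CXCL10, the interferon-induced T cell attractant, did not pass for knockdown. Its probe set 204533_at had 32.1, 39.3 and 36.4 with AML1-ETO siRNA by nucleofection, against 76.5 and 56.5 with luciferase siRNA by nucleofection. These groups did not overlap, and the log2 difference was −0.88 (SE 0.23, 95% interval −1.37 to −0.38, limma adjusted p = 0.0705). By lipid the values were 40.9, 44.0 and 59.1 with AML1-ETO siRNA, against 36.3, 54.2 and 48.9 with luciferase siRNA, a difference of 0.05 (adjusted p = 1). Untransfected cells had 33.9 and 42.9, and both the luciferase nucleofection arrays and the array without siRNA, at 59.2, lay above them. The AML1-ETO nucleofection arrays overlapped with the untransfected ones, at a difference of −0.09 (limma adjusted p = 0.848). Luciferase nucleofection minus untransfected was 0.79 for CXCL10 (limma adjusted p = 0.0877) and did not pass.

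Among the CC chemokines no knockdown difference passed. CCL5, a T cell and monocyte attractant, had 122, 128 and 123 (204655_at) with AML1-ETO siRNA by nucleofection, against 130 and 122 with luciferase siRNA by nucleofection. These were close, with a difference of −0.01 (95% interval −0.34 to 0.32). By lipid it had 155, 149 and 149 with AML1-ETO siRNA, against 166, 167 and 204 with luciferase siRNA, where the groups did not overlap but the difference of −0.24 did not pass (limma adjusted p = 1). The other CCL5 probe set, 1405_i_at, was more scattered, with differences of 0.16 (SE 0.33) by nucleofection and −0.39 (SE 0.29) by lipid.

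CCL4, an attractant of monocytes and T cells, was under the floor on 8 of 14 arrays. It had 26.5, 31.6 and 35.9 with AML1-ETO siRNA by nucleofection, against 26.0 and 7.18 with luciferase siRNA by nucleofection, and 16.0, 11.4 and 31.4 with AML1-ETO siRNA by lipid, against 10.2, 17.7 and 7.84 with luciferase siRNA by lipid. The highest value of all, 41.5, was on the array without siRNA. Its differences of 0.45 by nucleofection and 0.22 by lipid did not pass. CCL2 (216598_s_at), the monocyte attractant, was under the floor on all 14 arrays, between 1.71 and 7.83.

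**Figure D3:**
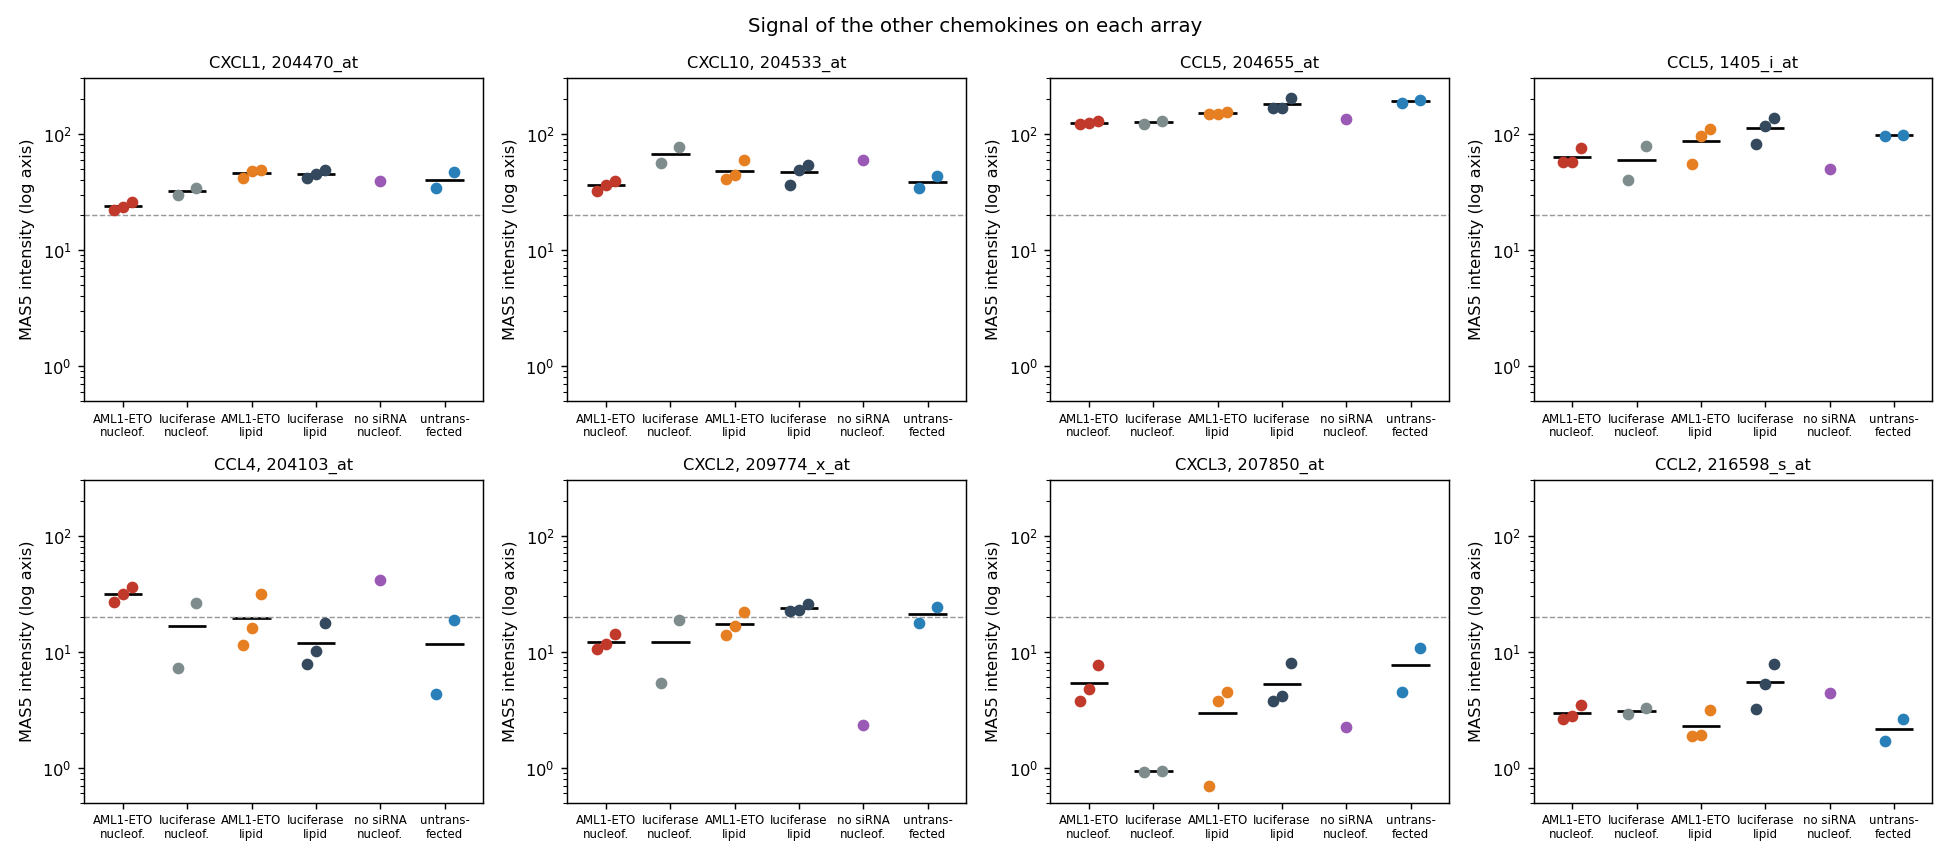
MAS5 intensity (log axis) of the 8 other chemokine probe sets on each of the 14 arrays, by group; points are arrays, lines group means and the dashed line the floor of 20. CXCL1 is lowest with AML1-ETO siRNA by nucleofection (21.9 to 26.0), and CXCL3 and CCL2 stay under the floor on every array.

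Over the 7 tested chemokine probe sets, 2 were called as the mean of both methods, both of CXCL8 and both lower, where 1.24% of all tested probe sets were called. Their median difference was −0.20, beside −0.07 over all probe sets tested. By nucleofection the same 2 CXCL8 probe sets were called, with a background of 2.1%, and the median was −0.42 beside −0.10. By lipid limma called 0 of the 7 (1 at an unadjusted p below 0.05), beside 0.0675% of all probe sets (9, with 648 at an unadjusted p below 0.05). For the difference between methods limma called 0 (3 at an unadjusted p below 0.05), beside 0.0525% of all (7, with 1418 at an unadjusted p below 0.05).

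**Figure D4:**
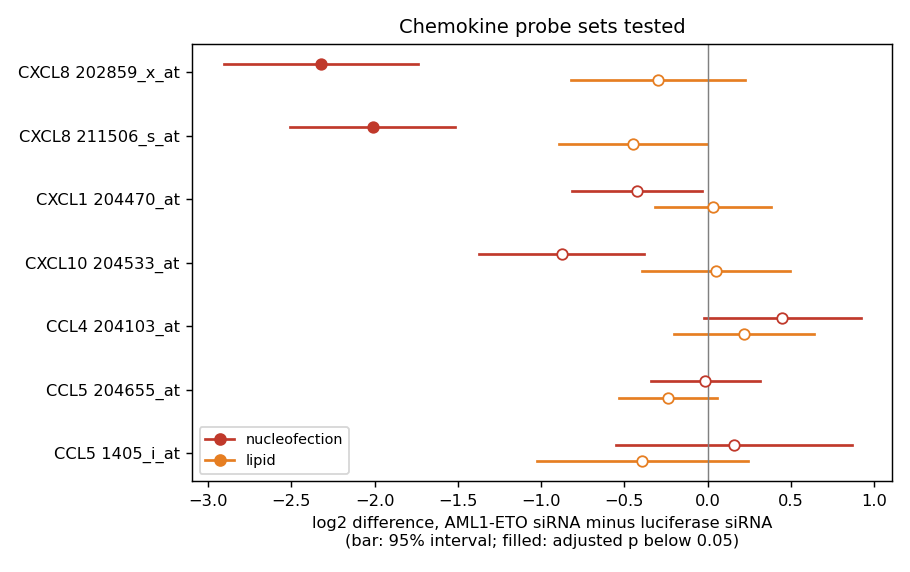
Log2 difference, AML1-ETO siRNA minus luciferase siRNA, of the 7 chemokine probe sets tested, by nucleofection and by lipid, with 95% intervals as bars and filled points for an adjusted p below 0.05. The 2 CXCL8 probe sets by nucleofection, at −2.32 and −2.01, are the filled points.

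The delivery method was compared next, as nucleofection minus lipid over both siRNAs. CXCL8, CXCL1 and CCL5 were lower by nucleofection, at −1.12 (SE 0.18, limma adjusted p = 0.00138) and −0.76 (adjusted p = 0.00493) for CXCL8, −0.73 (adjusted p = 0.00154) for CXCL1, and −0.39 (204655_at, adjusted p = 0.0172) and −0.69 (1405_i_at, adjusted p = 0.0405) for CCL5. For CXCL8 202859_x_at and 211506_s_at the difference was −2.13 and −1.54 with AML1-ETO siRNA, and −0.11 and 0.03 with luciferase siRNA. Over both siRNAs 5 of 7 probe sets were called, all lower, where 22.6% of all probe sets were called and the median of all was −0.14. With arrays centred on their medians, which moved that median to 0.01, 3 chemokine probe sets were called lower and CCL4 was called higher. CCL4 lay under the floor on 2 of 3 AML1-ETO lipid arrays and 3 of 3 luciferase lipid arrays, so it passed the filter mainly through nucleofection arrays. Centring followed the flooring and moved these floored values too, so the CCL4 call is not read as a result. The share of higher calls among all probe sets was 20.4%, and 49.5% after centring. The scale factors of the arrays ran from 0.964 to 1.56 over the 5 nucleofection arrays and from 0.488 to 1.15 over the 6 lipid arrays. CCL5 1405_i_at was called under 10 of 26 alternatives and lost its call with the replicate block (limma adjusted p = 0.06), and without luciferase nucleofection replicate 2 (−0.44). It was also not called without AML1-ETO nucleofection replicate 1 or 2, AML1-ETO lipid replicate 1 or 3, luciferase lipid replicate 2 or 3, or untransfected replicate 1 or 3. Nor was it called with quantile normalization, centring, a floor at 10, no filter, the compared groups alone or the scale factor as covariate. CCL5 204655_at was not called with quantile normalization, with centring, with the scale factor as covariate or without luciferase nucleofection replicate 2, where 3 chemokine probe sets were called.

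Some markers of other cell types were called lower by nucleofection than by lipid, where 22.6% of all probe sets were called. Of 3 epithelial probe sets tested 2 were called lower, EPCAM at −0.96 (limma adjusted p = 0.000483) and KRT8 at −0.58 (adjusted p = 0.0244). Of 3 T cell probe sets 1 was called lower, CD8A at −0.88 (adjusted p = 0.00779). The B cell, fibroblast, monocyte and macrophage, and endothelial lists had 0 called. The B cell and fibroblast medians were 0.24 and 0.21, beside −0.14 over all probe sets. Of 8 myeloid probe sets CD34 was called lower, at −0.76 (limma adjusted p = 0.00367), and 1 of PTPRC higher, at 1.38 (adjusted p = 0.000193). Lists this small cannot show whether these markers were called more often than other probe sets. The summed epithelial signal was 151 to 189 with AML1-ETO siRNA and 124 to 127 with luciferase siRNA by nucleofection, against 241 to 309 with AML1-ETO siRNA and 265 to 276 with luciferase siRNA by lipid. It was 116 on the array without siRNA and 291 to 317 in untransfected cells, and KRT19 was under the floor on all 14 arrays. Most of this sum was EPCAM, with 71.3 on the array without siRNA and a mean of 243 in untransfected cells. Against untransfected cells EPCAM after nucleofection was lower with both siRNAs, −0.85 for AML1-ETO (limma adjusted p = 0.0232) and −1.44 for luciferase (adjusted p = 0.0048). The summed T cell signal was 86.3 to 154 with AML1-ETO siRNA and 132 to 160 with luciferase siRNA by nucleofection, against 129 to 151 and 131 to 149 by lipid, so these ranges overlapped. The part of these markers in the chemokine differences was not tested.

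The methods were then compared within each siRNA, a pair of comparisons added after the values were seen. With AML1-ETO siRNA, CXCL8 was lower by nucleofection than by lipid, at −2.13 (limma adjusted p = 0.000669) and −1.54 (adjusted p = 0.00139), and CXCL1 was lower at −0.96 (adjusted p = 0.00477). That made 3 of 7 probe sets, beside 10.3% of all. With luciferase siRNA 0 of 7 passed in limma (4 at an unadjusted p below 0.05), beside 8.45% of all (1126, with 3372 at an unadjusted p below 0.05). There the CXCL8 differences were −0.11 (95% interval −0.69 to 0.48) and 0.03 (95% interval −0.47 to 0.52), CXCL1 was at −0.50 (adjusted p = 0.104) and CCL5 204655_at at −0.50 (adjusted p = 0.0585).

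Against untransfected cells, which served 4 comparisons as the same 2 arrays, the chemokines differed with AML1-ETO siRNA by nucleofection. CXCL8 was lower by 5.31-fold (202859_x_at, log2 −2.41, limma adjusted p = 0.000565) and 3.24-fold (211506_s_at, log2 −1.70, adjusted p = 0.00172). CXCL1 was at −0.75 (adjusted p = 0.0305) and CCL5 204655_at at −0.62 (adjusted p = 0.0329). These were 4 of 7 probe sets, beside 6.26% of all, and without untransfected replicate 1 or 3, or AML1-ETO nucleofection replicate 1 or 3, 2 were called. CXCL1 was called under 17 of 25 alternatives and CCL5 204655_at under 16 of 27. Of all calls 26.6% were higher, or 49.7% with quantile normalization, and the median of all was −0.12.

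The other transfected groups had 0 of 7 chemokine probe sets called against untransfected cells in limma, with 1, 3 and 0 at an unadjusted p below 0.05 in the order given next. The share of all probe sets called was 0.0675% with AML1-ETO siRNA by lipid (9, with 753 at an unadjusted p below 0.05), 4.88% with luciferase siRNA by nucleofection (650, with 2969) and 0.0075% with luciferase siRNA by lipid (1, with 486). CCL5 204655_at stood at −0.60 with luciferase siRNA by nucleofection (limma adjusted p = 0.0573) and at −0.62 with AML1-ETO siRNA by nucleofection. CXCL8 202859_x_at stood at −0.09 with luciferase siRNA and at −2.41 with AML1-ETO siRNA in the same comparisons.

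Other parts of the chemokine system were read from lists. Of the chemokine receptor probe sets 3 of 9 tested rose as the mean of both methods and by nucleofection, 0 fell, and all 3 were of CXCR4, the receptor of CXCL12. Over all tested probe sets 1.24% were called as the mean and 2.1% by nucleofection. The list's median was −0.06 beside −0.07 over all probe sets. CXCR4 211919_s_at had 275, 253 and 232 with AML1-ETO siRNA by nucleofection, against 78.3 and 114 with luciferase siRNA by nucleofection. By lipid it had 201, 231 and 270 with AML1-ETO siRNA, against 183, 178 and 184 with luciferase siRNA, and the groups did not overlap within either method. The difference was 1.42 by nucleofection (SE 0.19, limma adjusted p = 0.00208) and 0.35 by lipid (adjusted p = 1). CXCR4 217028_at was at 1.63 by nucleofection (adjusted p = 0.0095) and 0.94 by lipid (adjusted p = 0.458), and 209201_x_at at 2.60 (adjusted p = 0.00232) and 0.51 (adjusted p = 1). Luciferase nucleofection replicate 1 had 18.4 on 209201_x_at, under the floor, and without it the difference was 1.71. With the compared groups fitted alone none of the 3 CXCR4 probe sets was called by nucleofection (limma adjusted p = 0.0689, 0.0689 and 0.108), and 217028_at was not without luciferase nucleofection replicate 2 (1.39, adjusted p = 0.0917). As the mean of both methods all 3 were called under each alternative that tested them. The other 6 receptor probe sets tested were not called.

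Against untransfected cells the CXCR4 probe sets differed among themselves. CXCR4 211919_s_at was at 0.56 with AML1-ETO siRNA (limma adjusted p = 0.106) and at −0.86 with luciferase siRNA by nucleofection (adjusted p = 0.0377). The array without siRNA had 119, near the luciferase nucleofection arrays. Probe set 217028_at was at 1.34 with AML1-ETO siRNA (adjusted p = 0.0152) and −0.29 with luciferase siRNA (adjusted p = 0.617). Probe set 209201_x_at was at 0.88 with AML1-ETO siRNA (adjusted p = 0.167) and −1.72 with luciferase siRNA (adjusted p = 0.0296). For CXCL8 202859_x_at the same 2 differences were −2.41 and −0.09.

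Among factors that bind AU-rich mRNA elements, such as those of CXCL8, 2 of 24 probe sets rose as the mean and by nucleofection, 0 fell, and both were of ZFP36L2, which promotes decay of such mRNAs, beside 1.24% and 2.1% of all probe sets. The list's median was −0.09 beside −0.07. ZFP36L2 201368_at had 719, 782 and 817 with AML1-ETO siRNA by nucleofection, against 334 and 336 with luciferase siRNA by nucleofection. By lipid it had 682, 617 and 772 with AML1-ETO siRNA, against 526, 540 and 538 with luciferase siRNA. The groups did not overlap within either method, and the difference was 1.20 by nucleofection (SE 0.17, limma adjusted p = 0.0024) and 0.36 by lipid (adjusted p = 0.967). The array without siRNA had 345 and the untransfected arrays 530 and 400. ZFP36L2 201367_s_at was at 1.30 by nucleofection (limma adjusted p = 0.0107). Without luciferase nucleofection replicate 1 it was not called by nucleofection (1.18) or as the mean (0.79), nor with a floor at 64, nor by nucleofection with the compared groups alone. The remaining ZFP36L2 probe set, 201369_s_at, at 0.72 (adjusted p = 0.193), was not called.

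**Figure D5:**
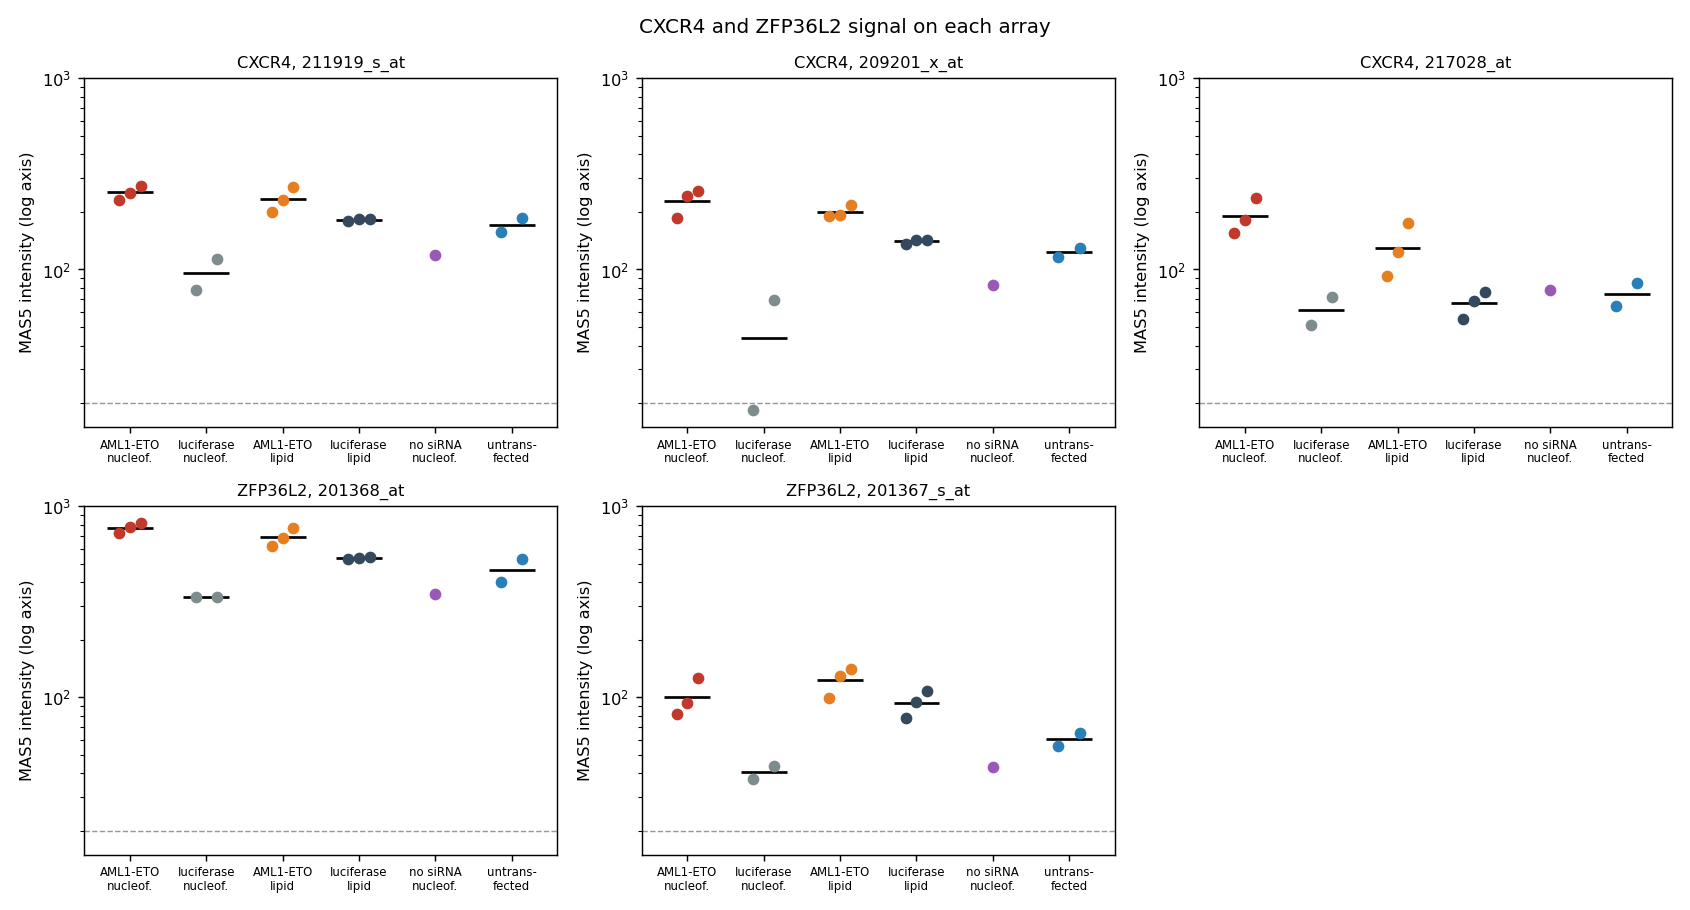
MAS5 intensity (log axis) of the CXCR4 probe sets and of the 2 called ZFP36L2 probe sets on each of the 14 arrays, by group; points are arrays, lines group means and the dashed line the floor of 20. The luciferase nucleofection arrays are the lowest in 3 of the 5 panels, and in CXCR4 217028_at the AML1-ETO arrays stand above all others.

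Of AP-1 and C/EBP factors, 1 of 15 probe sets rose as the mean of both methods, CEBPE, a regulator of granulocyte maturation, at 0.59 (limma adjusted p = 0.0431), and 0 fell, beside 1.24% of all, with a list median of −0.15 beside −0.07. CEBPE was not called by nucleofection (0.74, limma adjusted p = 0.0659), and as the mean it was called under 13 of 27 alternatives. Of all 13329 probe sets 1793 had an unadjusted p below 0.05 as the mean and 2335 by nucleofection. Of 20 probe sets for NF-kB subunits, inhibitors and kinases limma called 0 (2 as the mean and 3 by nucleofection at an unadjusted p below 0.05), with a list median of −0.04 beside −0.07 as the mean and −0.13 beside −0.10 by nucleofection. It also called 0 of 4 for other chemokines, 0 of 14 for inflammatory cytokines, 0 of 10 for inflammatory receptors and adaptors and 0 of 11 for interferon-induced genes, as the mean and by nucleofection. At an unadjusted p below 0.05 as the mean these had 0, 0, 3 and 1. Their medians as the mean were −0.15, 0.02, −0.14 and −0.08. By lipid 0 probe sets of these 8 lists were called.

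Across the 14 arrays, which share their groups and scaling, the 2 CXCL8 probe sets had a Pearson r of 0.95 and a Spearman rho of 0.78 on the floored log2 scale. CXCL8 202859_x_at had r of 0.82 with CXCL1, 0.61 with CCL5 204655_at, 0.57 with CXCL10 and −0.48 with CCL4. The genes most like it among 8125 were CSRP1 (r 0.96), a LIM domain protein, CD53 (0.95), a leukocyte tetraspanin, NME1 (0.94), a nucleoside diphosphate kinase, CCT2 (0.93), a chaperonin subunit, SRM (0.92), spermidine synthase, EWSR1 (0.91), CRTC3 (0.91) and HYAL2 (0.91). Their differences, AML1-ETO minus luciferase siRNA by nucleofection, ran from −0.81 (CD53) to −0.36 (NME1). Only CD53 among them was called (limma adjusted p = 0.0303), and the others had adjusted p from 0.0646 to 0.207. The most opposed were MSANTD2 (r −0.92), CAPG (−0.91), an actin-capping protein, CRIP1 (−0.89) and HLA-B (−0.89), with differences of 0.76 (HLA-B) to 2.04 (CRIP1). All of these opposed genes were called higher (limma adjusted p from 0.000752 to 0.0411). These correlations follow the low AML1-ETO nucleofection group in CXCL8 and describe these arrays.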

How the data were processed

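The deposited table holds 1 MAS5 intensity per probe set and array, on a linear scale and made by the authors, per the submitters' processing notes, and the labels give 1 scale factor per array. Software version and settings are not given in the sources used here. Of 22283 probe sets 19065 had 1 symbol in the platform annotation, 1043 several, 2107 none and 68 were controls. Members and lists were chosen with earlier results of these data known. Values were floored at 20 and logged, and the upper 60% of probe sets by mean (13329) were fitted in limma 3.58.1 (R 4.3.3) with 6 group means over 14 arrays, 8 residual and 5.05 prior degrees of freedom. Adjusted p-values below are limma's over all tested probe sets. Named were all member and RUNX1T1 probe sets, at most 4 called probe sets of each list and comparison, and the 8 genes most and 4 least like CXCL8 202859_x_at. Chosen after values were seen were the comparisons of methods within each siRNA, the promoter strings, and leaving out probe sets with no spread within groups, needed when a floor of 64 made many constant. The steps were tested on simulated data. Replicate numbers did not pair the arrays (correlations of deviations −0.08 to 0.06). The number of arrays limits the precision. Alternatives changed scaling, floor, filter, features, variance model, arrays fitted, covariate, block, weights, control and single arrays. Promoters came from RefSeq. Figures used Python with matplotlib.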

Additional observations from a re-analysis of the deposited data

How the results depend on the processing

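Each result was recomputed under up to 27 alternatives, some of which left out dim probe sets. CXCL8 202859_x_at was called lower by nucleofection and as the mean of both methods under all 27, from −2.58 to −2.15 and from −1.44 to −1.23. CXCL8 211506_s_at was called under all 26 that tested it, from −2.20 to −0.89 and from −1.32 to −0.67, the smallest with a floor at 64. The number of chemokine probe sets called as the mean and by nucleofection was 1 with 1 probe set a gene, and with the replicate block it was 2 for each. By nucleofection CXCL10 was also called with quantile normalization, with the upper 40% tested and with the array without siRNA as a control. For the difference between methods the number was 1 with quantile normalization, a floor at 64 or the upper 40%, 2 with a trended robust variance, and 0 to 1 leaving out single arrays. For nucleofection minus lipid it was 3 with quantile normalization, a floor at 64 or 1 probe set a gene, 2 with the scale factor as covariate, 4 with the replicate block, and 3 to 5 leaving out single arrays. For AML1-ETO nucleofection minus untransfected it was 2 with a floor at 64, the compared groups alone or the scale factor, 3 with the replicate block, and 2 to 5 leaving out single arrays, 5 without AML1-ETO lipid replicate 3. For luciferase nucleofection minus untransfected it was 1, and minus lipid also 1, with a floor at 64, no filter, the upper 40% or 1 probe set a gene. With a trended robust variance or the array without siRNA it was 1 minus untransfected and 2 minus lipid. RUNX1T1 had 1 probe set called with 1 probe set a gene, as the mean and by nucleofection, 0 by nucleofection with the compared groups alone, and 2 to 3 (mean) or 1 to 3 (nucleofection) leaving out single arrays. Over all probe sets the number called ranged from 99 to 246 (165) as the mean, 51 to 522 (280) by nucleofection, 4 to 17 (9) by lipid, 1 to 54 (7) for the difference between methods, 848 to 3554 (3007) for nucleofection minus lipid and 429 to 1946 (1374) and 361 to 1705 (1126) for it within AML1-ETO and luciferase siRNA. Against untransfected cells it ranged from 146 to 1314 (835) and 0 to 18 (9) with AML1-ETO siRNA by nucleofection and lipid, and 0 to 990 (650) and 0 to 3 (1) with luciferase siRNA. Higher calls were 69.1% as the mean and 61.4% by nucleofection, against 80.7% and 75.1% with arrays centred on their medians. The cause of these changes was not tested. CCL4 lay under the floor on 8 of 14 arrays, where differences are understated. CXCL1 and CXCL10 were dim but lay under it on 0 of 14. The luciferase nucleofection group held 2 arrays. No other knockdown call of a chemokine changed with the replicate block.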
